A study of Mus musculus with 15 samples.

Results

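Crosslink sites that lay just downstream of annotated 3′UTRs were examined in individual-nucleotide resolution crosslinking and immunoprecipitation (iCLIP) data of tristetraprolin (TTP). A site was a member when it lay in no annotated gene on its own strand and 1 to 5000 nt past the end of the nearest upstream protein-coding 3′UTR on that strand. The annotation was GENCODE release M21 on mm10. Of 162273 entries in 6 site lists, 2388 were members, which fell on 1765 distinct nucleotides behind 433 genes. The cells were immortalised bone marrow-derived macrophages from C57BL/6 mice that lacked endogenous TTP and had been transduced with the oncogenes hcmyc and hRasG12V. They carried a doxycycline-inducible vector for GFP-TTP or for GFP-TTP-AA, a mutant with alanine in place of the serines that MK2 phosphorylates. Every culture received doxycycline (1 µg/ml) for 6 h, and they were harvested at 0 h, 1 h or 4 h of lipopolysaccharide (LPS, 1 µg/ml). The tagged proteins were therefore expressed from a vector in every group, and GFP-only lists were not analysed here.

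TTP is a zinc finger protein that binds AU-rich elements in the 3′UTRs of short-lived mRNAs, many of them for cytokines, and recruits the deadenylation and decay machinery. Phosphorylation by MK2 after LPS restrains this activity. The position of an mRNA's 3′ end is set by cleavage and polyadenylation, usually shortly after the hexamer AATAAA or ATTAAA in the DNA sequence. A gene can use several such ends, and an annotation that stops at a proximal end leaves the remainder of a longer 3′UTR unannotated. In iCLIP, reverse transcription halts at the crosslinked nucleotide, so each unique cDNA marks a contact of the protein with RNA.

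Each list pooled the libraries of a group, from 2 to 4 libraries, and held between 19167 and 174397 cDNAs. No replicate values were therefore available, and every interval below is a 95% interval that covers counting error only. The headers of both 1 h lists carried a mark for the handling of regions in peak calling that the headers of the 0 h and 4 h lists lacked, so time and this setting cannot be told apart. The ribosomal RNA locus on chromosome 17 took between 10.4% and 32.0% of a list. For the labelled cell type, 6 of 8 macrophage markers and 0 of 13 markers of other cells had a 3′UTR site at 1 h. The Zfp36 3′UTR, which is endogenous sequence, was covered by 21 TTP and 131 TTP-AA cDNAs after 1 h of LPS, with no downstream cDNA at any time.

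The few sequences that could be read show the bases around some members and how the annotated 3′UTRs of leading genes end. The reference files held 30 nt of sequence around 38 of the 1765 sites (2.15%), so no motif share was computed. The example from a longer RefSeq 3′ end is Ppp2cb, a catalytic subunit of protein phosphatase 2A, with 3 sites 167 to 173 nt past its annotated end. Each of these sites held 1 cDNA, all in the TTP-AA list at 1 h, and the sequence was read from an annotated exon of Ubxn8. The other example is the site with most cDNAs (7 over all lists) among the 22 that lay 3836 to 3863 nt past Hist1h2bb, just before the GENCODE start of the next histone gene, Hist1h2ab. RefSeq places the more distant of these sites inside its gene H2ac4. Both were chosen after their values were seen. Capitals mark every crosslinked nucleotide in the Ppp2cb window but only the chosen site in the Hist1h2bb window. Many of the lower-case bases after that site were also crosslinked, among them chr13:23751081 with 6 cDNAs over all lists. The windows lie at chr8:33619595-33619624 and chr13:23751062-23751091, both on the plus strand of mm10.
Ppp2cb: taatcctttatttTaTtgaAatgtatgact
Hist1h2bb: ttcagttgcagaattTactatatattcttt

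The last 30 nt of the annotated 3′UTR are shown for 3 genes with sites in a longer RefSeq 3′ end (Cmip, Strn3 and Arf6) and for 3 genes whose sites lay elsewhere (Dusp4, Cd36 and Ctc1). Capitals mark AATAAA or ATTAAA. The windows lie at chr8:117459401-117459430 (plus strand), chr12:51609632-51609661 (minus), chr12:69373754-69373783 (plus), chr8:34819865-34819894 (plus), chr5:17781690-17781719 (minus) and chr11:69036444-69036473 (plus), from the mm10 transcripts of GENCODE M21.
Cmip: gatgggctcgcacaaaacaaaacaaaaaag
Strn3: taaagttattttgctttaaaaaaaaaaaaa
Arf6: tcatctagtaaactgaaaattattgcttaa
Dusp4: cttttgAATAAAaagatacgcatatgcctg
Cd36: gtgggaaacgatgtcATTAAAatcagattt
Ctc1: ctacAATAAActtctctgaggactttctga
The annotated ends of Cmip, Strn3 and Arf6 held neither hexamer, and those of Cmip and Strn3 ran into A-rich sequence. The ends of Dusp4, Cd36 and Ctc1 held a hexamer in this window. These genes are examples, and other genes did not follow this split. Eif2ak2 and Klhl11, with sites in a longer RefSeq 3′ end, held a hexamer in the last 30 nt. Mrpl58, Olfr750 and Per1, with most downstream cDNAs in tRNA genes, held none even in the last 50 nt.

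The downstream sites were a minor part of every list. Before LPS, 669 TTP cDNAs (1.99%) and 593 TTP-AA cDNAs (1.82%) were downstream. After 1 h of LPS, 921 TTP cDNAs (0.928%, Wilson interval 0.870% to 0.989%) and 2007 TTP-AA cDNAs (1.15%, 1.10% to 1.20%) were. After 4 h the counts were 359 (1.24%) and 295 (1.54%). Between 58.1% and 71.3% of the member sites of a list carried a single cDNA. The members nearest to an annotated end lay 6 nt past Srf and the most distant lay 4983 nt past Tmsb15a, and the nearest sites beyond the limit lay at 5018 nt behind Anxa5.

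The label of candidates for longer 3′UTRs was checked against the gene bounds of RefSeq on the same assembly, a comparison chosen after the sites had been examined. RefSeq matched 430 of the 433 genes. Of the 1765 nucleotides, 454 behind 80 genes lay within the RefSeq bounds of the same gene, called longer RefSeq 3′ ends here. RefSeq bounds do not separate exons from introns, and for some genes they ran far past the 5000 nt (67980 nt for Erlec1 and 38453 nt for Msr1), so a site in this class may be intronic. A further 203 nucleotides behind 16 genes lay in RefSeq tRNA genes, and 197 behind 36 genes lay in the bounds of another RefSeq gene. The remaining 911 nucleotides behind 312 genes lay in no RefSeq gene. The RefSeq table gives no strand, so the tRNA genes and other genes may lie on either strand. RefSeq thus placed 454 of the nucleotides in a longer form of the same gene, and whether these are 3′UTR was not tested. The members in tRNA genes went against the label.

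**Figure D1:**
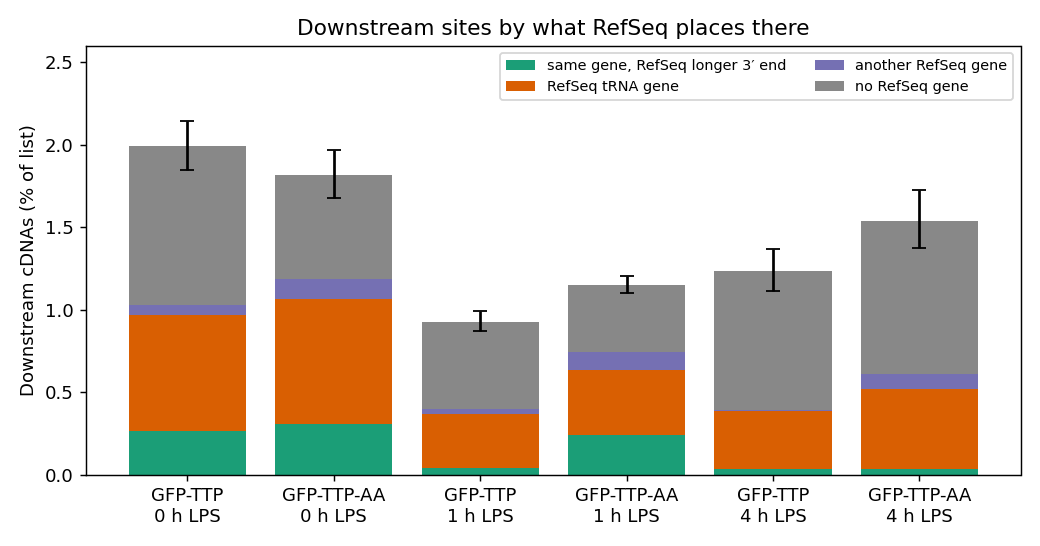
Bars give the downstream cDNAs as a percent of each list (y axis) for the 6 lists (x axis), stacked by what RefSeq places at the site, and error bars are Wilson 95% intervals of the total. After 1 h of LPS, longer RefSeq 3′ ends took 0.0373% for TTP and 0.239% for TTP-AA, whereas tRNA genes took 0.332% and 0.393%.

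The classes differed in how the listed cDNAs of TTP-AA compared with those of TTP at 1 h. In longer RefSeq 3′ ends, TTP had 37 cDNAs and TTP-AA had 417, a ratio of 11.3 (exact interval 8.04 to 16.2). In annotated 3′UTRs the ratio was 9.78 (9.58 to 9.99). In tRNA genes, 330 TTP and 686 TTP-AA cDNAs gave a ratio of 2.08 (1.82 to 2.38). In another RefSeq gene, 26 and 196 cDNAs gave 7.54 (4.99 to 11.8). In no RefSeq gene, 528 and 708 cDNAs gave 1.34 (1.20 to 1.50). The cDNAs of the whole lists had a ratio of 1.76. TTP-AA thus supplied 91.9% of the cDNAs in longer RefSeq 3′ ends and 67.5% of those in tRNA genes, a difference of 24.3 percentage points (Newcombe interval 20.3 to 28.0). Of the 65 genes with a site in a longer RefSeq 3′ end at 1 h, 49 had TTP-AA cDNAs only. These 49 passed the filter through that list alone, so the difference describes listed cDNAs and nothing further is read from it. The share in another RefSeq gene, 88.3%, was 20.8 points above that in tRNA genes (15.1 to 25.4). A single gene, Prrg4, whose downstream cDNAs lay mainly in this class, had 104 TTP-AA cDNAs and no TTP cDNA. The ratio and share of this class were not computed without Prrg4, so they may reflect that locus. The difference between longer RefSeq 3′ ends and annotated 3′UTRs was 1.12 points, with an interval from -1.76 to 3.31 that held 0. More binding and more transcript in the TTP-AA cells cannot be told apart in these lists.

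The classes differed in other ways at 0 h and 4 h. Before LPS, longer RefSeq 3′ ends had 89 TTP and 101 TTP-AA cDNAs, a ratio of 1.13 (0.845 to 1.53). The difference from tRNA genes at 0 h was 2.23 points (-6.13 to 10.5). The share of TTP-AA in longer RefSeq 3′ ends was above that in no RefSeq gene by 14.3 points at 0 h (6.04 to 22.3). Without histone genes the 2 shares were 44.0% and 38.9%, and with each site counted once the difference was 3.15 points (-7.05 to 13.5). Sites in no RefSeq gene had a lower share than tRNA genes at 0 h (difference -12.1 points, -18.1 to -5.94). With each site counted once this interval also held 0 (-4.74 points, -13.8 to 4.36). In another RefSeq gene, 19 TTP and 40 TTP-AA cDNAs before LPS gave a share 16.9 points above that of tRNA genes (3.42 to 28.3), and 2 and 17 cDNAs after 4 h gave one 41.8 points above (19.8 to 52.0). At 4 h longer RefSeq 3′ ends had 9 TTP and 6 TTP-AA cDNAs, and their difference from tRNA genes was -7.72 points (-29.1 to 17.5).

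RefSeq bounds also separated the density of sites. GENCODE 3′UTR ends were passed by the RefSeq gene in 6751 of 20417 matched genes (33.1%), which gave 3.26 Mb of extension within the 5000 nt. At 1 h, TTP-AA had 128 cDNAs per Mb there (exact Poisson interval 116 to 141) against 18.1 per Mb (17.2 to 19.0) in the rest of the downstream windows. On the opposite strand of the same extensions TTP-AA had 1.82 cDNAs per Mb (0.589 to 4.24). In annotated 3′UTRs it had 2823 per Mb. For TTP at 1 h the extensions held 11.4 cDNAs per Mb (7.99 to 15.7) and the rest held 10.0 per Mb (9.39 to 10.7), or 6.29 (5.78 to 6.84) without tRNA genes. By sites, TTP had 10.1 per Mb in the extensions (6.97 to 14.2) and 4.17 in the rest (3.75 to 4.62). The opposite strand of the extensions held no TTP cDNA, which allows up to 1.34 per Mb. Before LPS the extensions held 27.3 TTP and 31.0 TTP-AA cDNAs per Mb (14.4 and 11.4 without histone genes), against 6.59 and 5.59 in the rest. At 4 h they held 2.76 and 1.84, against 3.97 and 3.28. Outside the extensions the same and the opposite strand of the windows were close for TTP-AA at 1 h, at 18.1 and 18.7 cDNAs per Mb. Without tRNA genes the same strand held 10.3 cDNAs per Mb (9.61 to 11.0), and the opposite strand was not computed without them. By sites, with tRNA genes, the 2 strands held 7.36 and 6.59 per Mb.

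**Figure D2:**
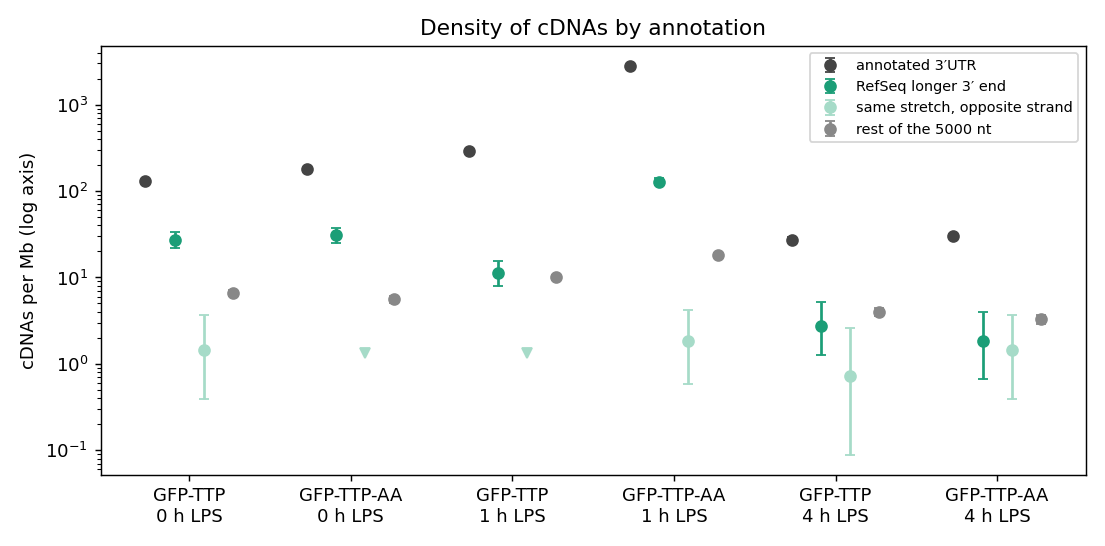
Points give cDNAs per Mb (y axis, log scale) for each list (x axis) in annotated 3′UTRs, in longer RefSeq 3′ ends on both strands and in the rest of the 5000 nt, with exact Poisson 95% intervals, and triangles give the upper limit where the count was 0. At 1 h the TTP-AA density in longer RefSeq 3′ ends was 128 per Mb, above 18.1 per Mb in the rest of the windows, and the TTP densities were 11.4 and 10.0 per Mb. Without tRNA genes, which is not drawn, the rest held 6.29 TTP cDNAs per Mb.

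At 1 h, the number of sites per Mb was highest in the first 250 nt. For TTP-AA at 1 h, 23.0 sites per Mb lay in the first 250 nt and 7.75 per Mb in the farthest of 6 bins, which ended at 5000 nt. On the opposite strand the corresponding values were 1.97 and 7.92 per Mb. For TTP at 1 h the same strand held 7.88 and 3.92 sites per Mb. By cDNAs the highest bin at 1 h was the next one, which ended at 500 nt, with 44.5 per Mb for TTP-AA and 19.4 for TTP, against 34.2 and 12.4 in the first 250 nt. Without tRNA genes this order turned, with 22.5 and 7.29 per Mb in that bin and 28.4 and 8.09 in the first 250 nt. At 4 h the sites were also denser in that second bin (2.71 per Mb for TTP and 3.33 for TTP-AA) than in the first 250 nt (0.830 and 2.70). Without tRNA genes this held for TTP (1.25 and 0.622) and turned for TTP-AA (1.46 and 2.28). By cDNAs at 1 h, the ratio of the nearest to the farthest bin was 1.93 (1.62 to 2.30) for TTP-AA and 1.10 (0.825 to 1.45) for TTP. The median distance was 684 nt for sites in longer RefSeq 3′ ends, 1149 nt in tRNA genes and 1921 nt in no RefSeq gene.

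**Figure D3:**
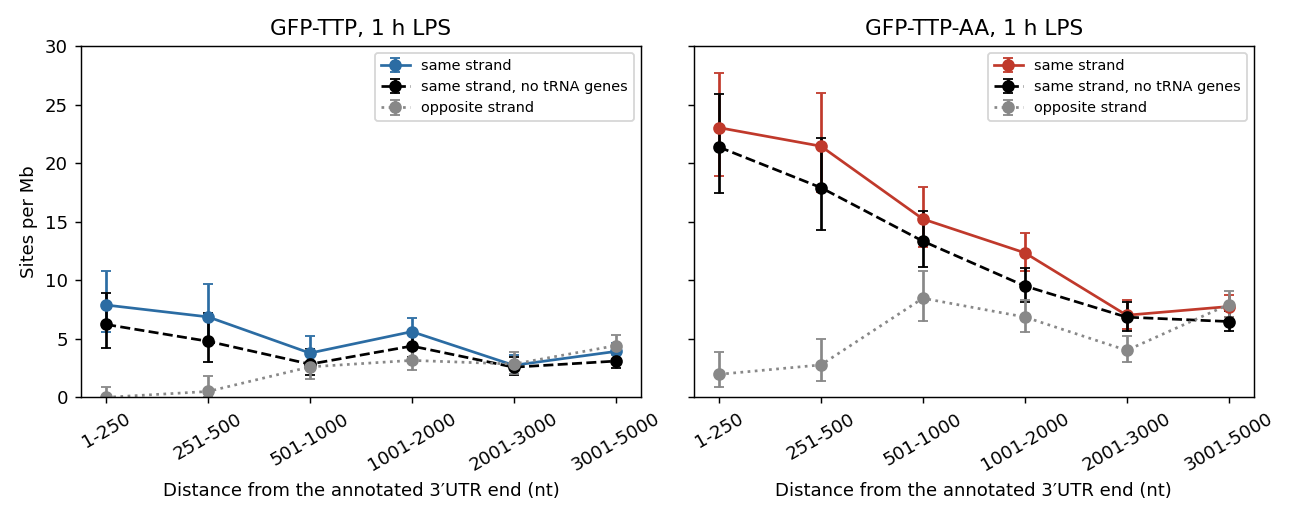
Sites per Mb (y axis) in 6 bins of distance from the annotated 3′UTR end (x axis) at 1 h for TTP and TTP-AA, with exact Poisson 95% intervals, on the same strand with and without tRNA genes and on the opposite strand. TTP-AA sites on the same strand fell from 23.0 per Mb in the nearest bin to 7.75 per Mb in the farthest, where the opposite strand held 7.92.

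Within the longer RefSeq 3′ ends, Cmip led at 1 h. Cmip encodes c-Maf inducing protein, and its annotated 3′UTR ends at chromosome 8, 117459430, whereas its RefSeq gene runs 2076 nt further. Over both 1 h lists it had 55 sites at 488 to 1998 nt, with 3 TTP cDNAs and 62 TTP-AA cDNAs, and no cDNA in any other list. Its annotated 3′UTR held no cDNA in any list. The TTP-AA to TTP ratio of all longer RefSeq 3′ ends was 10.4 without Cmip.

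Strn3, which encodes a regulatory subunit of protein phosphatase 2A, showed the same pattern with TTP-AA alone. It had 36 TTP-AA cDNAs and no TTP cDNA at 1 h, at 28 sites between 97 and 534 nt past its annotated end on chromosome 12, and none in its annotated 3′UTR. Set against 3 TTP cDNAs, the limit for a count of 0, the TTP-AA count was 12.0-fold higher. The exact lower limit of the count ratio was 9.27, and 5.27 as shares of the lists. Strn3 entered through the TTP-AA list alone, and TTP cDNAs that did not pass the filter are missing. These limits thus cover listed cDNAs only, and nothing further is read from them. Arf6, a small GTPase of membrane recycling, had 17 TTP-AA cDNAs and no TTP cDNA downstream, at 18 to 2141 nt. Its annotated 3′UTR was bound as well, with 5 TTP and 66 TTP-AA cDNAs.

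Uprt and Kdm3b, the latter a histone demethylase, completed the genes with the largest called ratios in this class. Uprt had 19 TTP-AA cDNAs between 2053 and 4685 nt, spread over 17 sites, and Kdm3b had 17 between 211 and 287 nt, over 13 sites. Neither had a TTP cDNA downstream at 1 h. Further genes were chosen after their values were seen. Fyb, an adaptor protein of immune cells, had 13 TTP-AA cDNAs at 2189 to 2265 nt of an extension of 2304 nt. Eif2ak2, the double-stranded RNA-activated kinase PKR, had 2 TTP and 15 TTP-AA cDNAs at 1872 to 1968 nt of 2060 nt, where RefSeq also lists Gm6548. Pabpn1, the nuclear poly(A)-binding protein, had 3 TTP and 12 TTP-AA cDNAs at 234 to 713 nt of 758 nt.

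Among the 48 genes with a TTP-AA site in a RefSeq extension of 200 to 5000 nt, 21.9% of 351 cDNAs (17.9% to 26.6%) lay within 100 nt of the RefSeq end. That stretch made up 5.84% of the extension sequence of these genes, and 17 of the 48 genes had a site in it. For TTP, 2 of 28 cDNAs lay there.

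In all, 65 genes had a site in a longer RefSeq 3′ end at 1 h. TTP-AA had more cDNAs than TTP in 57 of them and fewer in 8, and 49 had TTP-AA cDNAs only. Over all 2113 3′UTRs and downstream regions with at least 10 cDNAs, TTP-AA had more in 2085 and fewer in 24. The 49 genes entered through the TTP-AA list alone, so nothing is read from these counts of genes. The annotated 3′UTRs of the 65 genes held 21 TTP and 611 TTP-AA cDNAs, and 33 of the 65 had no cDNA there in either list. In 38 of the 65, TTP-AA had more cDNAs in the extension than in the annotated 3′UTR. Of the 57 genes with such a site in the TTP-AA list, 29 (50.9%, 38.3% to 63.4%) had a 3′UTR site in that list, compared with 21.2% of all genes with an annotated 3′UTR. The share was similar for genes with sites in no RefSeq gene, 60 of 128 (46.9%, 38.4% to 55.5%), and 44.4% for all genes with a downstream site, whereas 2 of the 15 genes behind tRNA genes had a 3′UTR site. The difference between the longer RefSeq 3′ ends and tRNA genes was 37.5 points (9.94 to 53.3). Transcript abundance, which affects both regions of a gene, was not measured in these lists.

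The annotated ends of these genes carried a poly(A) hexamer less often. AATAAA or ATTAAA, searched on the transcript strand with overlaps allowed, lay in the last 50 nt of the annotated end in 28 of 65 genes (43.1%, 31.8% to 55.2%). Genes with a 3′UTR site at 1 h and no downstream site held a hexamer in 3681 of 4459 (82.6%), a difference of -39.5 points (-50.8 to -27.3), and 75.3% of all 21003 genes with an annotated end held it. Genes with sites in no RefSeq gene held it in 147 of 201 (73.1%), a difference of -9.42 points (-16.0 to -3.65). Genes behind tRNA genes held it in 8 of 15 (53.3%), a difference of -29.2 points (-52.5 to -7.33), so a lower share was not limited to longer RefSeq 3′ ends. A run of 8 A lay in the last 30 nt in 8 of the 65 genes (12.3%), against 3.01% of the 4459, a difference of 9.30 points (3.34 to 19.5). This run was searched after the ends of Cmip and Strn3 had been seen. The sequence behind the sites was not available, so the hexamer there was not tested.

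Replication-dependent histone mRNAs end in a stem-loop rather than a poly(A) tail. Hist1h2af, which encodes an H2A histone on chromosome 13, was the gene with most TTP-AA cDNAs downstream at 0 h. It had 29 sites at 12 to 40 nt past its annotated end, where RefSeq runs 74 nt further. Its TTP and TTP-AA counts were 42 and 64 before LPS, 3 and 30 after 1 h, and 3 and 0 after 4 h. TTP-AA was the higher list at 0 h and 1 h. Without histone genes, which removed the cDNAs of Hist1h2af alone at 0 h, longer RefSeq 3′ ends had 47 TTP and 37 TTP-AA cDNAs before LPS, and the ratio at 1 h was 11.4. At 1 h, 2 of the 54 histone genes with an annotated 3′UTR had a downstream site (3.70%), beside 1.43% of all genes with an annotated 3′UTR. The other was Hist1h2bb with 4 TTP and 39 TTP-AA cDNAs, whose sites ended 22 nt before Hist1h2ab and lay in part inside RefSeq H2ac4.

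**Figure D4:**
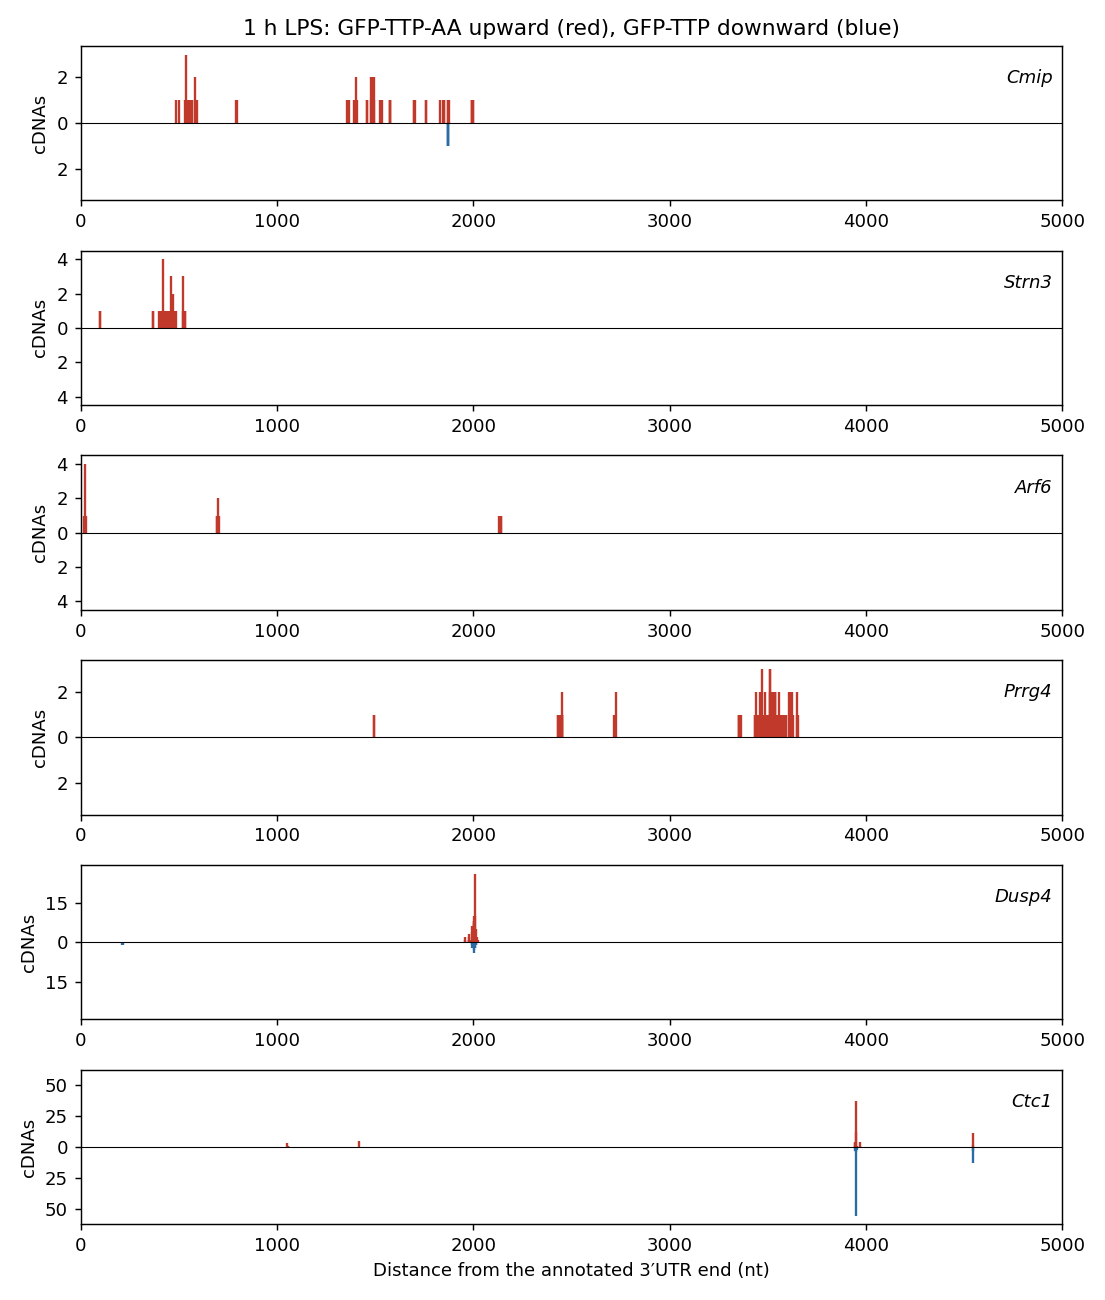
cDNAs per nucleotide at 1 h (y axis, TTP-AA upward and TTP downward, scale differs between genes) by distance from the annotated 3′UTR end (x axis, nt) for Cmip, Strn3, Arf6, Prrg4, Dusp4 and Ctc1. Cmip had 55 sites over 1511 nt, whereas the leading Ctc1 site held 55 TTP cDNAs on a single nucleotide.

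The tRNA genes were bound at every time. Of the 430 RefSeq tRNA genes, 24 held downstream sites. The TTP and TTP-AA counts were 237 and 246 before LPS, 330 and 686 after 1 h, and 103 and 94 after 4 h. Of the 12 genes with downstream cDNAs in all 6 lists, 8 had most of them in tRNA genes. The TTP-AA to TTP ratio in these tRNA genes at 1 h, 2.08, was near the ratio of 2.05 (1.96 to 2.14) in 175 tRNA genes elsewhere outside annotated genes, and the shares of TTP-AA differed by 0.334 points (-2.75 to 3.30).

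Ctc1, a subunit of a telomere replication complex on chromosome 11, lay upstream of 5 such tRNA genes. Its downstream TTP and TTP-AA counts were 28 and 41 before LPS, 82 and 86 after 1 h, and 26 and 12 after 4 h. In both 1 h lists the leading site was nucleotide 36 of the 72-nt tRNA gene n-TPcgg3 (chromosome 11, 69040385 to 69040456), 3947 nt past the 3′UTR end, with 55 TTP and 37 TTP-AA cDNAs. Mrpl58, a mitochondrial ribosomal protein gene, had 62 and 106 after 1 h, in the tRNA genes n-TRcct5 and n-TRtcg4. Olfr750, an olfactory receptor gene, had 45 and 118, and Per1, a circadian clock gene, had 46 and 84. Aars, the alanyl-tRNA synthetase gene, had 29 and 56 at a tRNA gene 4911 to 4949 nt downstream. Ctc1, Mrpl58 and Olfr750 had no 3′UTR cDNA at any time.

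1700001P01Rik had the largest ratio among the tRNA loci named here. The TTP and TTP-AA counts in its tRNA gene n-TCgca18 were 33 and 49 before LPS, 8 and 97 after 1 h, and 10 and 8 after 4 h. The count ratio at 1 h was 12.1 (5.91 to 28.9), and the ratio of all tRNA genes was 1.83 without this locus. Of its cDNAs over all lists, 109 of 205 fell on nucleotide 57 of the tRNA gene. Over all 24 tRNA genes, 70.2% of the cDNAs fell on nucleotides 21 to 40, counted along the strand of the site, 25.9% on 41 to 60, 3.36% on 61 to 83 and 0.531% on 1 to 20.

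Sites within another RefSeq gene were led by Prrg4, which encodes a membrane protein. Behind Prrg4 on chromosome 2 lay 89 sites at 1203 to 3652 nt, within the RefSeq gene 2310047K21Rik. TTP-AA had 9 cDNAs before LPS, 104 after 1 h and 2 after 4 h, and TTP had none at any time. Set against 3 TTP cDNAs, the limit for a count of 0, the TTP-AA count at 1 h was 34.7-fold higher. The exact lower limit of the count ratio was 27.7, and 15.8 as shares of the lists. Prrg4 entered through TTP-AA lists alone, so these limits also cover listed cDNAs only, and nothing further is read from them. The 3′UTR of Prrg4 itself had 8 TTP and 4 TTP-AA cDNAs after 1 h. Whether these sites belong to Prrg4 or to 2310047K21Rik cannot be told apart here.

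Among sites in no RefSeq gene, Dusp4 held most downstream TTP-AA cDNAs of all genes after 1 h of LPS. Dusp4 encodes a nuclear phosphatase that inactivates MAP kinases, and its 3′UTR ends at chromosome 8, 34819894. A cluster of 37 sites within 71 nt (34821850 to 34821920), 1956 to 2026 nt past that end, held 25 TTP and 140 TTP-AA cDNAs after 1 h. The same cluster held 11 and 3 before LPS and 2 and 6 after 4 h, so it was present in all 6 lists. In the TTP list a further 2 cDNAs lay at 209 to 218 nt. The annotated 3′UTR held 22 TTP-AA cDNAs and no TTP cDNA. As a share of its list, the downstream binding of Dusp4 was 2.95-fold higher for TTP-AA (1.94 to 4.64).

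Among the 19 such genes with at least 10 cDNAs at 1 h, TTP-AA had more cDNAs in 7 and fewer in 11. Over all 2113 3′UTRs and downstream regions with that minimum, it had more in 2085 and fewer in 24. These are raw counts, and the whole TTP-AA list held 1.76 times the cDNAs of the TTP list. As shares of the lists, 3 of the 19 were at least 2-fold higher for TTP-AA and 11 at least 2-fold lower. Cd36, a scavenger receptor gene of macrophages, had 24 sites within 26 nt, 4893 to 4918 nt downstream, and its TTP and TTP-AA counts were 48 and 28 before LPS, 83 and 83 after 1 h, and 109 and 12 after 4 h. Grm4, a glutamate receptor gene, had 35 and 20 after 1 h, on 3 adjacent nucleotides. Sept4 had 12 TTP cDNAs and none for TTP-AA at 1 h, 208 nt before the next GENCODE gene, Mtmr4, and Commd3 had 10 and 3. Rpl3 (11 and 4), Ptpa (11 and 3) and Kcnk12 (8 and 3) were likewise higher for TTP, each within 13 nt. Vmn1r37, a vomeronasal receptor gene, was among the leading genes of TTP-AA after 4 h, with 15 cDNAs on 2 adjacent nucleotides, where TTP had 0 after 4 h and 3 before LPS. The 1 h sites behind 17 of 19 such genes with at least 10 cDNAs spanned 100 nt or less (median 11 nt), against 7 of 13 genes led by longer RefSeq 3′ ends (median 97 nt).

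For each gene with at least 10 downstream cDNAs over both 1 h lists, the share of the list was compared between TTP-AA and TTP. Across all 2113 features, the 3′UTRs and the downstream regions, 88.8% were at least 2-fold higher for TTP-AA and 1.14% were at least 2-fold lower. Of the 48 downstream regions, 23 were higher and 11 lower. The 23 comprised 13 of 13 regions led by longer RefSeq 3′ ends, 3 of 11 led by tRNA genes, 4 of 5 led by another RefSeq gene and 3 of 19 led by no RefSeq gene. All 11 lower regions were led by sites in no RefSeq gene, though that of Sept4 also had cDNAs within RefSeq Mtmr4. In 19 of the 48 the TTP count was 3 or lower, so these regions passed the minimum mainly through TTP-AA and could hardly be called lower. They included all 13 regions led by longer RefSeq 3′ ends and 0 of 11 led by tRNA genes, so nothing is read from the contrast between these classes. The median share ratio, with 0.5 added to each count, was 1.51 downstream and 13.1 over all features.

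**Figure D5:**
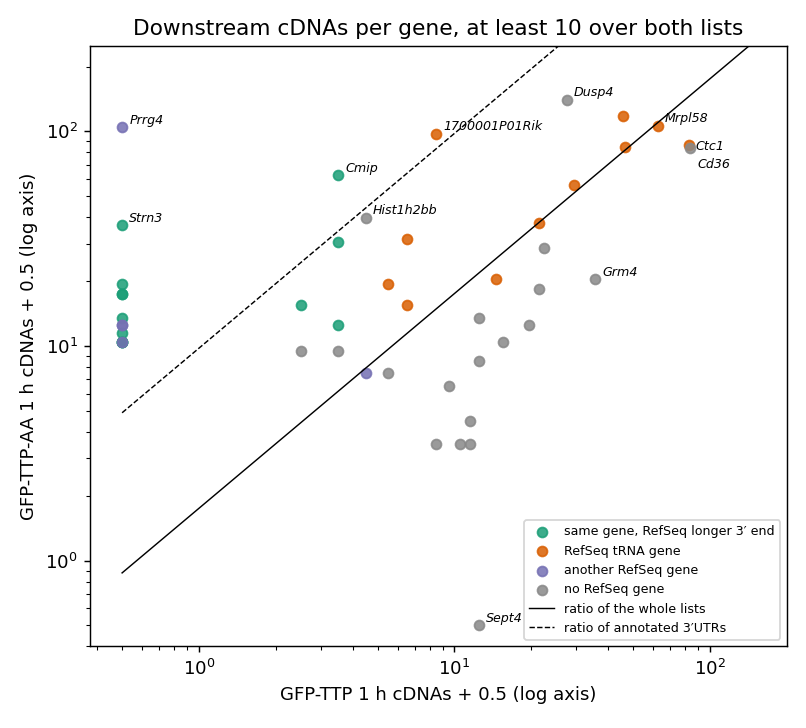
Downstream cDNAs of TTP (x axis) and TTP-AA (y axis) at 1 h, each plus 0.5 on log axes, for the 48 genes with at least 10 over both lists, coloured by what RefSeq places at most of the cDNAs, and lines give the ratios of the whole lists (1.76) and of annotated 3′UTRs (9.78). The 13 genes led by longer RefSeq 3′ ends lie above the whole-list ratio, and most tRNA genes lie near it.

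The share of a list at downstream sites was higher for TTP-AA than for TTP by 0.223 points after 1 h (0.144 to 0.300) and by 0.304 points after 4 h (0.0916 to 0.524). Before LPS the difference was -0.174 points, and its interval held 0 (-0.382 to 0.0347). The direction after 1 h did not hold under other counting: it was -0.395 points with each site counted once and -0.0130 points (-0.115 to 0.0858) without the chromosome 17 ribosomal RNA locus. Relative to annotated 3′UTRs, TTP had 9.64 downstream cDNAs and TTP-AA had 2.15 per 100 3′UTR cDNAs at 1 h. These ratios were 15.3 and 9.87 before LPS and 39.6 and 29.5 after 4 h. As a share of downstream and 3′UTR cDNAs together, TTP-AA was lower by 6.69 points at 1 h (difference -6.69, -7.25 to -6.15). With only longer RefSeq 3′ ends counted, the difference at 1 h was 0.0583 points (-0.0926 to 0.173).

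The known targets of TTP contributed few cDNAs to these sites. Of 27 genes that the study listed as top or selected targets, all had a 3′UTR site at 1 h. A downstream site was found for 4 of them (14.8%), beside 1.43% of all genes with an annotated 3′UTR. The study chose these genes on the same libraries, so they are not independent of them. Mdm2, the ubiquitin ligase for p53, had 3 TTP cDNAs downstream against 149 TTP and 1674 TTP-AA cDNAs in its 3′UTR. Spp1, which encodes osteopontin, had 3 TTP-AA cDNAs downstream, and the NF-κB inhibitor Nfkbia had 2 TTP cDNAs. Tnfaip3, which encodes the ubiquitin-editing enzyme A20, had 2 TTP-AA cDNAs downstream. None of these 4 lay in a longer RefSeq 3′ end. A downstream site at 1 h was found for 1 of 23 cytokine and chemokine genes (Il6), 3 of 25 NF-κB and TLR4 signalling genes, 2 of 17 MAP kinase pathway genes, 0 of 29 mRNA decay and AU-rich element-binding factors and 1 of 19 cleavage and polyadenylation factors (Pabpn1), compared with 1.43% of all genes with an annotated 3′UTR. Il6 had 3 TTP-AA cDNAs, within the RefSeq gene A230098N10Rik. Among the 8 macrophage markers, Lyz2 had 2 TTP-AA cDNAs downstream.

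The lists shared sites to a different degree in each class. At 1 h, 53.0% of 400 TTP downstream sites had a TTP-AA downstream site within 15 nt, and 30.2% of 991 TTP-AA sites had a TTP site. In annotated 3′UTRs these shares were 76.6% and 21.5%. All 82 TTP sites in tRNA genes had a TTP-AA partner (interval 95.5% to 100%), whereas 24.2% of 33 TTP sites (8 sites) and 5.83% of 343 TTP-AA sites in longer RefSeq 3′ ends did. At 0 h, when the lists were of similar depth, 49.2% of 63 TTP and 50.9% of 53 TTP-AA sites in longer RefSeq 3′ ends were shared. Without the histone gene Hist1h2af, whose sites spanned 29 nt, 40 TTP and 32 TTP-AA sites remained at 0 h. The shared part of these was not computed, and an effect of depth on sharing was not tested.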

How the data were processed

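The 15 samples were grouped by their titles into 6 groups, and the deposited files were 6 lists, 1 per group. Each value is a score, deposited as a whole number that counts distinct cDNAs and is negative on the minus strand. The authors removed PCR duplicates by random barcode bases, mapped unique reads to mm10 with Bowtie (version not given in the sources used here) and took the nucleotide before the read as the site. The headers name Ensembl 75, 100 permutations, a neighbourhood of 15 nt and a false-discovery rate of 0.05. Columns of other series numbered 0.

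Sites were assigned to GENCODE M21 on GRCm38 (mm10), with 1-based coordinates, and to RefSeq gene bounds of GRCm38.p6, with Python 3.11.15, numpy 2.4.6, pandas 2.3.3, scipy 1.17.1 and matplotlib 3.10.9. Shares have Wilson intervals, differences Newcombe intervals, densities exact Poisson and ratios exact binomial intervals, all at 95%. Differences whose interval did not hold 0 were called, and no p-value was computed. The limit for a count of 0 was 3 counts, between 0.00172% and 0.0157% of a list. Interval coverage and the 2-fold call were tested on simulated data. Downstream, "longer RefSeq 3′ end" means within the RefSeq bounds of the same gene, matched by Entrez identifier or symbol.

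The members and gene lists were chosen with earlier results of these data known. Named genes were those with most downstream cDNAs per list (8 at 1 h, 4 at 0 h and 4 h), the 5 with most sites at 1 h, the 5 largest and 5 smallest called ratios, the 3 leading genes without 3′UTR cDNAs and the study's targets, and others are marked as chosen after their values were seen, which also holds for every further gene given with counts. Motifs around sites, soft-masked sequence and poly(A) signals behind the sites were not analysed, since no genome sequence was used here.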

Additional observations from a re-analysis of the deposited data

Results flagged for a closer look

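How far TTP-AA exceeded TTP in the share of cDNAs at downstream sites was not the same at all times. It was 0.397 points higher at 1 h than at 0 h (0.174 to 0.619), and at 0 h it was lower than at 4 h (difference -0.478 points, -0.781 to -0.180). Relative to annotated 3′UTRs, the 1 h difference was lower than the 0 h difference (-2.39 points, -3.68 to -1.10). These intervals cover counting error of single pooled lists, and the 1 h lists differed from the others in a header mark for peak calling.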

How the results depend on the processing

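No paired analysis was possible because each deposited list is a sum over libraries, and no library was left out. Motif windows and soft-masked sequence were not run, since no genome sequence was used here. Alternatives based on RefSeq classes, the 100-nt poly(A) window and the left-out genes were chosen after seeing the data.

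For the share of a list (TTP-AA minus TTP, points; 0.223 at 1 h), the direction turned at 1 h with each site counted once (-0.395), a limit of 10000 nt (-0.572), without the chromosome 17 locus (-0.0130) and outside every RefSeq gene (-0.126). It rose to 0.485 with at least 3 cDNAs per site and to 0.366 with at least 2, and fell to 0.101 at 1000 nt and 0.0609 with only tRNA genes. At 4 h (0.304) it rose to 0.583 without the leading genes (Cd36 for TTP and Mrpl58 for TTP-AA) and 0.509 with sites counted once, and fell to 0.103 at 1000 nt and 0.136 with only tRNA genes. It turned with at least 3 cDNAs per site (-0.217), 10000 nt (-0.994) and without the locus (-0.0473), and its interval held 0 with at least 2 cDNAs (0.0643), outside every RefSeq gene (0.0856), without tRNA genes with or without 50 nt around them (0.168 in both) and with only longer RefSeq 3′ ends (0.000333). At 0 h (-0.174, interval holding 0) it turned with at least 3 cDNAs (0.0998), only longer RefSeq 3′ ends (0.0447) and only tRNA genes (0.0486), and its interval excluded 0 with sites counted once (-0.343), 10000 nt (-0.637), without the locus (-0.290), without the leading genes (-0.227; Cd36 for TTP and Hist1h2af for TTP-AA), without sites behind another gene (-0.246), outside every RefSeq gene (-0.333) and without tRNA genes, with or without 50 nt (-0.222 in both). The cause was not tested.

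For the share against 3′UTRs, only longer RefSeq 3′ ends gave -0.343 at 0 h, 0.0583 at 1 h and -0.387 at 4 h, against -4.30, -6.69 and -5.60. The 1 h value kept its direction at -1.69 (1000 nt), -3.23 (2000 nt), -18.9 (10000 nt), -11.5 (at least 2 cDNAs), -3.98 (sites counted once), -4.43 (without tRNA genes) and -2.61 (only tRNA genes). At 4 h it turned with sites counted once (2.83), a limit of 2000 nt (0.631) and without the leading genes (0.0652; Cd36 for TTP and Mrpl58 for TTP-AA), and its interval held 0 at 1000 nt (-0.420) and with only tRNA genes (-1.62).

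Shared TTP sites on the same nucleotide were 26.4%, 39.3% and 28.2% at 0 h, 1 h and 4 h, against 50.5%, 53.0% and 58.9% within 15 nt. Of genes with at least 5 TTP cDNAs downstream at 1 h, 2.94% had a 3′UTR site, against 13.1% of all with a downstream site. As shares of 3′UTR cDNAs, 13 regions were higher and 29 lower, and with at least 20 cDNAs 9 and 5, against 23 and 11. Counting sites once moved the ratio of the nearest to the farthest bin to 2.01 for TTP and 2.97 for TTP-AA. In tRNA genes the TTP-AA to TTP ratio of 2.08 moved to 1.76 with sites counted once and to 2.42 without Ctc1. The ratio of 11.3 in longer RefSeq 3′ ends ranged from 10.4 to 11.4. The lists cannot show differences within counting error at 4 h, where the longer RefSeq 3′ ends held 9 and 6 cDNAs.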
